A study of Mus musculus with 20 samples.

Results

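H3K4me1 of mouse induced pluripotent stem (iPS) cells was compared with H3K4me1 of mouse embryonic fibroblasts (MEFs), the cell type the iPS cells were made from. The 2 libraries are members of a series of 20 ChIP-seq libraries, and the comparison was made over all 1 kb bins of the 19 autosomes, 2462446 in number. The iPS line, O6 in the labels, was grown on irradiated MEF feeder cells and then for 2 passages without them. The MEFs were grown under standard culture conditions. The labels give neither the strain of the iPS cells and MEFs nor the way the iPS cells were reprogrammed, and they describe 1 iPS line and 1 library for each cell type. Immunoprecipitated total histone H3 of MEFs served as background for MEFs and H3 of V6.5 (129JAE-C57/B6) ES cells, 1 passage off feeders, for iPS cells. Embryonic stem (ES) cells with H3K4me1 in 3 libraries gave a reference for the pluripotent state. Replicate 1 was V6.5, 2 passages off feeders, replicate 2 was V6.5 with the doxycycline-inducible 4f2a transgene, 1 passage off feeders, and replicate 3 was j21, inbred C57/B6, 1 passage off feeders. H3K27ac (1 passage off feeders), p300 (2 passages) and H3K4me3 (1 passage) of V6.5 ES cells, H3K27ac of neural progenitors derived from 129JAE-C57/B6 embryoid bodies, and H3K4me1, H3K4me3, H3K27ac and H3 of perfused whole liver, whose strain the labels do not give, were set beside them. The labels do not say which libraries came from separate cultures. The named cell types were not checked against marker genes, because no gene could be attached to positions of this build.

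H3K4me1 is a single methyl group on lysine 4 of histone H3 and is found at enhancers, active or not, and on the flanks of promoters. Each cell type carries it at a largely different set of enhancers, so its pattern is a record of cell identity. In reprogramming, the pattern of a fibroblast gives way to that of a pluripotent cell, and marks that stay at fibroblast sites are often called epigenetic memory.

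The iPS library listed 2.45 M reads and the MEF library 18.2 M, which left 2.29 M and 14.3 M distinct reads on the autosomes after repeated positions (5.35% and 20.7%) were counted once. MEF and ES reads were therefore thinned at random to the iPS depth, at which 1 read equals 0.436 reads per 1000000 distinct reads (RPM) and a bin held 0.932 reads on average. A bin is called marked where it held at least 8 reads (3.49 RPM) and at least 3-fold the H3 background. Among bins marked in at least 1 of the 2 libraries, a bin is called lost or gained where the ratio of iPS to MEF reads, each with 1 read added, was 3-fold or more, and shared where both libraries were marked and within 2-fold. With 1 library for each cell type the calls rest on size alone and have no replicate check. Intervals are exact 95% intervals that cover counting error only, because PCR gives reads that are not separate molecules, and neighbouring bins are correlated. At the edge of the rule, 1250 lost bins held 8 MEF reads and 2 iPS reads, while 919 bins with 8 and 3 fell just outside it. On the gained side 1648 bins with 8 iPS reads and 2 MEF reads lay inside and 1140 with 8 and 3 outside.

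Most H3K4me1 bins of fibroblasts were lost and most bins of iPS cells had been gained. MEFs had 77060 marked bins and iPS cells 76485, and 19200 were marked in both, 24.9% of the MEF bins and 25.1% of the iPS bins. At this depth overlap is limited by counting too. A second draw of MEF reads, sharing none with the first, marked 72.9% of the same bins. Any one ES library marked 41.1 to 61.8% of the marked bins of another. Of 134345 bins compared, 43161 (32.1%) were lost, 42789 (31.9%) were gained and 15893 (11.8%) were shared, and the other 24.2% lay between these classes. Thus 56.01% (55.7 to 56.4) of fibroblast bins were lost and 55.9% (55.6 to 56.3) of iPS bins were gained.

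Differences of this extent were not seen between libraries of pluripotent cells called by the same rule at the same depth. The ES libraries differed from each other at 10.6 to 15.2% of compared bins, lost and gained together, against 64.0% for iPS cells and MEFs. iPS cells differed from the 3 ES libraries at 15.0, 10.9 and 11.6%, within the range between ES libraries. In these comparisons 3.27, 2.63 and 5.2% of bins were lost and 11.7, 8.23 and 6.4% gained in iPS cells relative to ES replicates 1, 2 and 3. Between ES replicates 1 and 2, 1 and 3, and 2 and 3 the lost shares were 6.01, 11.1 and 8.63% and the gained shares 4.54, 4.08 and 3.94%. A second draw of MEF reads that shared no read with the first gave 2.52% lost and 2.54% gained, the share that thinning alone gave. Over the compared bins, log2 reads of iPS cells correlated with MEFs at -0.46 and with the ES libraries at 0.73 to 0.76. These are correlations across bins that were chosen for a high value in iPS cells or MEFs, which pulls the first of them down, and bins are not independent replicates.

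**Figure D1:**
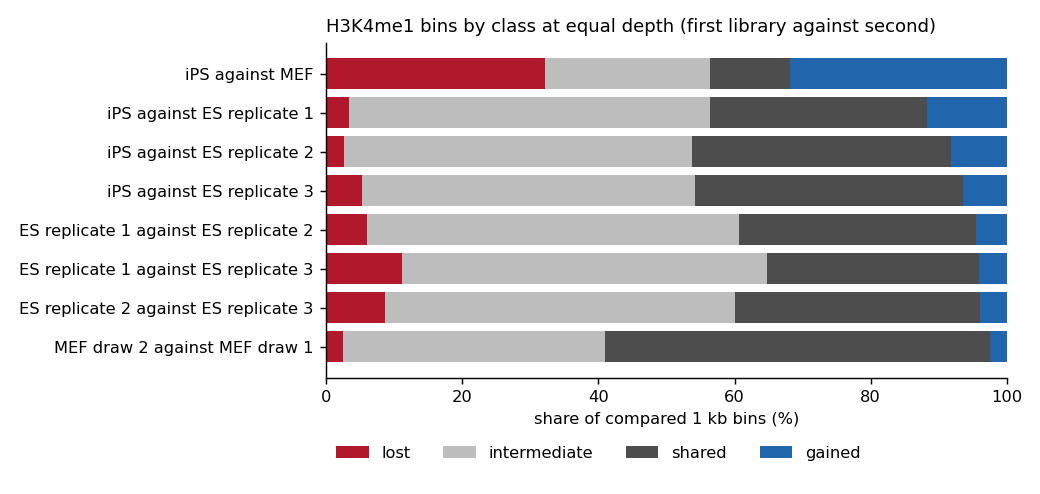
Share of compared 1 kb bins (%) that were lost, intermediate, shared or gained in the first library named against the second, all at the iPS depth. Lost and gained bins make up 64.0% for iPS cells against MEFs and 10.6 to 15.2% between ES libraries.

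A test was possible only by letting the 3 ES libraries give the spread, with 2 residual degrees of freedom, on the assumption that the iPS and MEF libraries vary like ES libraries. limma over 177796 bins at a Benjamini-Hochberg adjusted p of 0.05 called 7651 bins (4.3%) higher and 14608 (8.22%) lower in iPS cells than in MEFs, and 35712 and 33973 passed an unadjusted p of 0.05. Of the lost bins 14498 (33.6%) were called lower, of the gained bins 7587 (17.7%) were called higher, and 0 of the shared bins were called, which follows in part from the choice of these classes by the ratio of the same reads. The median log2 difference over all tested bins was 0.40. At full depth 3300 shared bins were called and the median was -0.00345. The number of calls moved widely with the fit. Without ES replicate 1, 2 or 3 limma called 305, 198 or 277 bins higher and 8211, 8285 or 7691 lower, and limma-voom called 31832 and 25297.

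At the lost bins, iPS cells and ES cells were both far below MEFs but above their own level at unmarked bins. The mean level was 5.78 RPM per kb in the MEF draw not used for calling and 0.646 (0.641 to 0.651) in iPS cells, where the iPS value is held down by the rule that chose the bins. The ES libraries, which took no part in the rule, stood at 0.808, 0.862 and 0.986 at the same bins (0.885 ± 0.0911, SD, n = 3). Relative to bins with at most 2 reads in iPS cells, MEFs and every ES library, lost bins were 6.72 times as high in iPS cells, 4.48, 5.10 and 8.92 times in ES replicates 1 to 3 and 46.6 times in the second MEF draw. H3, whose RPM is not on one scale with that of H3K4me1, was 1.27 times as high in ES cells and 1.90 times in MEFs. The unmarked bins were chosen by low reads in the same iPS and ES libraries, which lowers the unmarked level of these libraries. The second MEF draw took no part in that choice, and the first draw, which did, stood at 67.6 times. The ratios of iPS and ES libraries are therefore not alike to that of the second MEF draw. Of the lost bins, 90.9% were marked in none of the 3 ES libraries, against 50.1% of all compared bins. Only 7.42% held H3K4me3, the methyl mark of promoters, in ES cells or liver, against 11.3% of all compared bins. Liver H3K4me1 averaged 1.94 RPM per kb and was marked at 18.7% of lost bins, against 21.2% of all compared bins. Lost bins come only from MEF-marked bins, which are a part of the compared bins. Of the 77060 MEF-marked bins 51677 were marked in no ES library, 11204 held H3K4me3 and 20335 were marked in liver. Of the 43161 lost bins the numbers were 39236, 3201 and 8057.

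Gained bins carried H3K4me1, H3K27ac and p300 in ES cells. The mean level was 5.12 (5.10 to 5.13) RPM per kb in iPS cells and 0.594 in the MEF draw not used for calling, where the iPS value is raised by the rule that chose the bins. ES H3K4me1 stood at 3.11, 3.39 and 3.78 (3.42 ± 0.336, SD, n = 3) there, and 73.0% of gained bins were marked in at least 1 ES library, against 49.9% of all compared bins. At the depth used, 26.99% of gained bins were marked in none, yet only 6.40 to 10.3% held 2 reads or fewer in any one ES library. Many bins without a call in ES cells were thus under the minimum and not empty. Gained bins come only from iPS-marked bins, of which 24.7% were marked in no ES library, so gained bins were not richer in ES marks than those. The gained share of iPS-marked bins was 61.1% where no ES library was marked and 52.6% where all 3 were. H3K27ac, histone acetylation found at active regulatory elements, averaged 2.97 ± 0.148 RPM per kb in ES cells (SD, n = 2) at gained bins against 1.20 ± 0.0955 at lost bins. p300, an acetyltransferase recruited to enhancers, averaged 1.99 ± 0.126 against 0.943 ± 0.0963 (n = 2 each). H3K27ac of neural progenitors and of liver ran the other way, with 0.756 and 1.10 at gained bins and 1.60 and 1.77 at lost bins. Only 3.68% of gained bins held H3K4me3, against 10.9% of all iPS-marked bins.

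Shared bins held H3K4me3 more often than lost or gained bins. H3K4me3 of ES cells or liver was present at 23.3% (22.6 to 23.9) of them, against 11.3% of all compared bins. ES H3K4me1 averaged 3.91 ± 0.398 RPM per kb (SD, n = 3), 83.1% were marked in at least 1 ES library and 38.9% were marked in liver. Shared bins come only from the 19200 bins marked in both iPS cells and MEFs. Of those, 4345 held H3K4me3, 3193 were marked in no ES library and 7689 were marked in liver. Of the 15893 shared bins the numbers were 3699, 2689 and 6187, so shared bins were much like all bins marked in both. H3K27ac was high in every cell type measured, with 4.82 ± 0.312 in ES cells (SD, n = 2), 4.33 in neural progenitors and 3.87 in liver. ES p300 averaged 2.40 ± 0.293 (SD, n = 2), so ES H3K27ac and p300 were both higher at shared than at gained bins. MEF H3 was 0.916 RPM per kb at shared bins, 0.836 at lost bins and 0.697 at gained bins, whereas ES H3 was 0.641, 0.600 and 0.646.

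**Figure D2:**
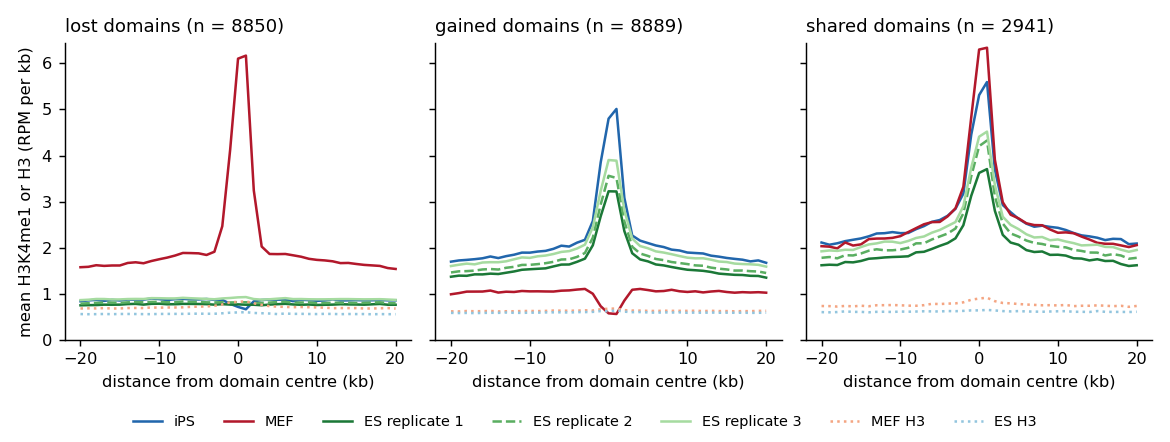
Mean H3K4me1 or H3 (RPM per kb, full depth) by distance from the centre of lost, gained and shared domains of at least 2 bins. At lost domains the MEF peak of 6.10 at the centre has no counterpart in iPS cells (0.71) or the ES libraries (0.770 to 0.922). The choice of lost domains by high MEF and low iPS reads raises that peak and lowers the iPS value. At gained domains the iPS library (4.80) lies above the 3 ES libraries (3.22 to 3.90) while MEFs stand at 0.575. The choice of gained domains by high iPS and low MEF reads raises the iPS value and lowers that of MEFs.

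Called bins that touched or were 1 bin apart were joined into domains, 26106 lost, 24464 gained and 11028 shared. At 10 kb from the centre of the 8850 lost domains of at least 2 bins, MEFs held 1.75 and 1.74 RPM per kb, iPS cells 0.88 and 0.85 and ES cells 0.76 to 0.90, with other lost bins left in. Most domains were single bins (66.1% of lost, 63.7% of gained, 73.3% of shared), and the widest measured 52 kb (lost), 42 kb (gained) and 19 kb (shared). Domains of 5 kb or more numbered 1387 lost and 1783 gained. In the wide lost domains the median level was 6.42 RPM per kb in MEFs, 0.545 in iPS cells and 0.641, 0.651 and 0.742 in the ES libraries. In the wide gained domains it was 4.97 in iPS cells, 0.448 in MEFs and 3.38, 3.73 and 4.10 in the ES libraries. The domains were joined from bins called by these iPS and MEF reads. The place of iPS cells below the ES libraries in lost domains and above them in gained domains follows in part from that choice.

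The balance of losses and gains varied along the chromosomes. Of 1358 windows of 1 Mb with at least 20 compared bins, 234 had over 4 times as many lost as gained bins and 156 over 4 times as many gained as lost. The window with the most lost bins was chr2:27000001-28000000, with 223 lost, 44 gained and 23 shared bins. The window with the most gained bins was chr11:117000001-118000000, with 186 gained, 80 lost and 106 shared. By chromosome, the lost share of compared bins ran from 26.1% on chromosome 4 to 39.5% on chromosome 6, and the gained share from 27.9% on chromosome 3 to 37.1% on chromosome 4. Outside marked bins, each chromosome's share of iPS reads was 0.962 to 1.04 times the ES mean, and those of the ES libraries themselves 0.938 to 1.08 times, a wider span. For MEFs the ratio ran from 0.865 on chromosome 5 to 1.14 on chromosome 3. The highest ES ratio, 1.08, was that of replicate 1 on chromosome 8, with 5.99% of its reads against 5.33 and 5.32% in replicates 2 and 3. On that chromosome iPS cells held 5.41%, ES H3, the iPS background, 6.26% and MEF H3 5.25%.

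The leading lost domains held no iPS read at all. They were chosen as the 8 domains of at least 2 bins with the largest ratio of summed reads, so their order is a description. Coordinates are on the build of the files, which is not named; their largest positions fit the known chromosome lengths of mm8, and no gene was attached. Domain chr10:76092001-76098000 had 158 thinned MEF reads, 136 in the second MEF draw, 0 in iPS cells and 4, 3 and 0 in the thinned ES libraries. Set against a floor of 3 iPS reads in the domain, the second MEF draw, which did not choose the domain, was 45.3-fold higher. The iPS count of 0 did help to choose it, so this fold is not a lower bound. Domain chr7:67613001-67617000 had 111 MEF reads, 0 iPS reads and 7, 1 and 8 ES reads. Domain chr6:84208001-84215000 had 108 MEF reads, 0 in iPS cells and 2, 5 and 0 in ES cells. In these 3 domains MEFs stood far above iPS cells and all 3 ES libraries, and liver held 0.137, 1.02 and 0.215 RPM per kb.

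A second domain on chromosome 6 also had liver signal. Domain chr6:91157001-91163000 had 104 thinned MEF reads, 0 iPS reads and 5, 5 and 4 ES reads, and its liver level was 2.25 RPM per kb against 8.34 in MEFs. The other 4 leading domains, on chromosomes 17, 4, 14 and 2, had 92 to 104 thinned MEF reads and 0 in iPS cells. ES H3K27ac in these 8 domains was 0.179 to 0.922 RPM per kb over both libraries.

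The leading gained domains were high in all 3 ES libraries too. Domain chr3:34950001-34961000 had 116 iPS reads, 0 in both MEF draws and 102, 115 and 108 in the thinned ES libraries. MEFs held 3 reads there at full depth. Its level in iPS cells was 4.60 RPM per kb against 4.24 ± 0.209 in ES cells (SD, n = 3). It also held the most p300 of the 8, with 12.4 and 9.51 RPM per kb of ES H3K27ac and 9.13 and 9.25 of ES p300. Domain chr9:39976001-39987000 had 111 iPS reads, 0 thinned MEF reads and 91, 87 and 85 ES reads, but its p300 was 0.901 and 1.00 RPM per kb.

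Others of these domains ranged from promoter-linked to shared with liver. Domain chr5:113565001-113570000 was the only one of the 8 that overlapped H3K4me3, with 86 iPS reads, 0 thinned MEF reads and 52, 74 and 72 ES reads, and 9.35 and 10.1 RPM per kb of ES H3K27ac. Domain chr10:127295001-127302000 had 99 iPS reads and 58, 63 and 102 ES reads. It was the only one of the 8 with a high liver level, 5.70 RPM per kb of H3K4me1 and 6.28 of H3K27ac, and 0.07002 of H3K4me1 in MEFs. The other 4, on chromosomes 6, 10, 11 and 4, had 86 to 106 iPS reads and 0 thinned MEF reads. iPS cells lay above all 3 ES libraries in 7 of the 8 domains at full depth, which their choice by a high iPS count favours.

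**Figure D3:**
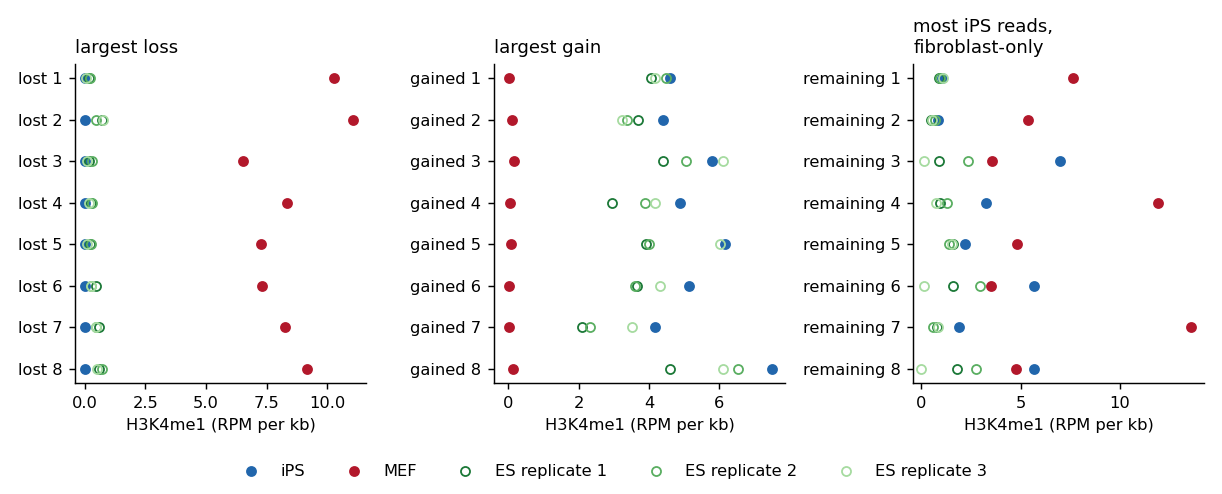
H3K4me1 (RPM per kb, full depth) in iPS cells, MEFs and the 3 ES libraries at the 8 lost, the 8 gained and the 8 fibroblast-only domains named by fixed rules. In the lost domains iPS cells stand at 0, in the gained domains MEFs stand at 0.158 or less, and in the fibroblast-only domains with the most iPS reads iPS cells lie above all 3 ES libraries in 7 of 8, which the choice by iPS reads favours, and 3 of the 8 were named through a bin that was not fibroblast-only.

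Whether a fibroblast mark stayed in iPS cells followed whether ES cells carried it. Of the MEF bins marked in none of the 3 ES libraries, 75.9% (75.6 to 76.3) were lost and 6.18% (5.97 to 6.39) were marked in iPS cells. Of those marked in 1, 2 and 3 ES libraries, 43.1%, 69.2% and 88.1% were marked in iPS cells, and 23.5%, 12.3% and 6.22% were lost. The iPS library took no part in the count of ES libraries. MEF bins with H3K4me3 were lost less often than those without it, 28.6% (27.7 to 29.4) against 60.7% (60.3 to 61.1). MEF bins also marked in liver were lost at 39.6% and those with at most 2 liver reads at 68.6%. Among bins with no ES mark the order was the same, 63.3% (62.4 to 64.3) with the liver mark and 83.0% (82.5 to 83.4) with at most 2 liver reads. These 2 sets were not alike in ES reads. At most 2 reads were held, by ES library, in 47.1 to 55.4% of the first set and 72.4 to 77.5% of the second.

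**Figure D4:**
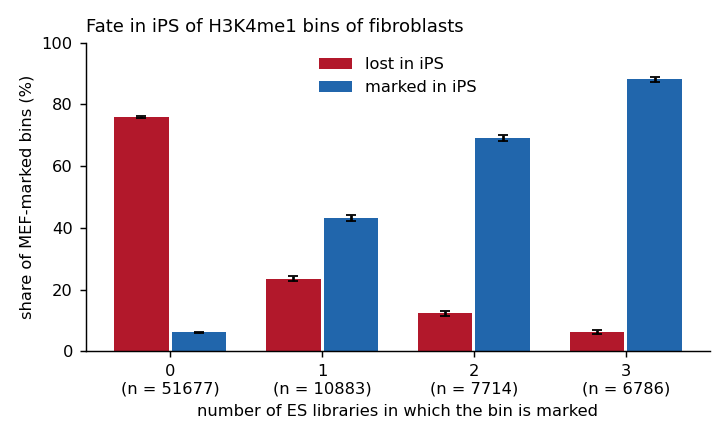
Share of MEF-marked bins (%) that were lost or marked in iPS cells, by the number of ES libraries in which the bin was marked. Bars start at 0 and error bars are exact 95% binomial intervals; the marked share climbs from 6.18% to 88.1%.

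Bins with a stronger fibroblast mark were lost more often by ratio but came down to 2 reads or fewer less often. Among MEF bins with 8 to 11 thinned reads 52.4% were lost, among those with 12 to 19 reads 56.01%, and among those with 20 or more 66.0%. A 3-fold fall is easier to reach from a high count, so the share with at most 2 iPS reads is given beside it, which was 51.0%, 42.9% and 32.8%. The share with at most 2 reads fell likewise in the ES libraries, from 50.3 to 54.5% in the lowest class to 31.4 to 38.1% in the highest.

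Marks remaining at fibroblast sites were sought in bins that MEFs marked and ES cells lacked. To keep the choice of bins apart from the values compared, 2 ES libraries with at most 2 reads each chose the bins, and iPS cells were set beside the third. The mean iPS level was 0.403, 0.455 and 0.471 RPM per kb over 27304, 27697 and 28956 such bins, with ES replicate 1, 2 and 3 left out. The left-out ES library stood at 0.453, 0.493 and 0.544 in the same order, and the second MEF draw at 4.94 to 5.00. iPS cells were below the left-out ES library in 3 of 3 cases, at 0.892 ± 0.0283 times its level (SD over the 3 choices, which share libraries), and scaling to unmarked bins turned the direction for replicates 1 and 2.

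That scaling used bins with at most 2 reads in MEFs and the 2 choosing ES libraries, where iPS cells held 0.136 to 0.145 RPM per kb and the left-out ES libraries 0.213, 0.194 and 0.156. Relative to these unmarked bins, the fibroblast-only bins stood at 2.90, 3.34 and 3.25 times in iPS cells and at 2.13, 2.54 and 3.48 times in ES replicates 1, 2 and 3. On this scale iPS cells were above ES replicates 1 and 2 and below replicate 3. The level above unmarked bins amounted to 5.49, 6.60 and 6.70% of that of MEFs in iPS cells, and to 4.99, 6.19 and 7.98% in the ES libraries. A level above unmarked bins was thus measured in iPS cells and in ES cells, and ES H3 was itself 1.23 to 1.25 times higher at these bins than at unmarked ones. Feeder MEFs had been present in the culture of both, and their part in these values was not tested.

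Bins with more MEF reads had higher levels in both cell types. With ES replicate 1 left out, iPS cells had 0.371, 0.425 and 0.496 RPM per kb at fibroblast-only bins with 8 to 11, 12 to 19 and 20 or more MEF reads. ES replicate 1 had 0.431, 0.466 and 0.521 there, and ES H3 0.577, 0.608 and 0.641. With ES replicates 2 and 3 left out, iPS cells were likewise below the ES library in each of the 3 classes on the RPM scale, the direction that scaling to unmarked bins turned over all classes for replicates 1 and 2.

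**Figure D5:**
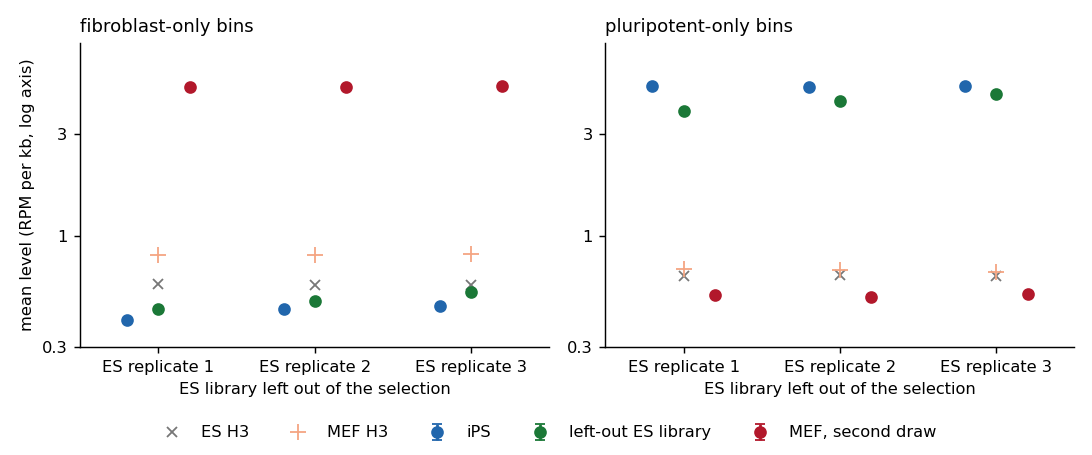
Mean level (RPM per kb, log axis) of iPS cells, the left-out ES library, the second MEF draw and both H3 libraries at fibroblast-only and pluripotent-only bins, for each ES library left out. Error bars are exact 95% Poisson intervals and are smaller than the points; at fibroblast-only bins iPS cells (0.403 to 0.471) lie below the ES library, a direction that turns for ES replicates 1 and 2 with scaling to unmarked bins. RPM of H3 is not on one scale with RPM of H3K4me1.

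Few single bins kept a fibroblast mark. With all 3 ES libraries at 2 reads or fewer, 24117 bins were fibroblast-only. iPS cells held 0 reads in 55.2% of them, at most 2 in 91.9% and 8 or more in 50, which is 0.207% (0.154 to 0.273). Of these 50 bins 17 (34.0%) held H3K4me3, against 3.08% of all 24117. In the choices by 2 ES libraries, iPS cells reached 8 reads in 125, 297 and 244 bins and the left-out ES replicates 1, 2 and 3 in 46, 153 and 257. Away from H3K4me3 the numbers were 92, 86 and 174 for iPS cells and 43, 43 and 211 for ES cells, so iPS cells lay above 2 of the ES libraries and below the third. The iPS library also had more of its reads in marked bins, 38.9% against 23.7, 27.3 and 35.9% in ES replicates 1 to 3 and 47.9% in MEFs, and the part of this in the counts was not tested.

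Joined into domains, which may include 1 bin between that is not itself fibroblast-only, 55 of 16826 held a bin with at least 8 iPS reads, be it fibroblast-only or the bin between. Of the 8 with the most iPS reads, 3 were single bins with H3K4me3 and high acetylation. Bin chr2:143962001-143963000 had 16 iPS reads, 9 thinned MEF reads and 1, 2 and 0 ES reads, with 21.6 and 39.6 RPM per kb of ES H3K27ac. Bins chr6:51399001-51400000 and chr10:86135001-86136000 had 13 iPS reads each, 10 thinned MEF reads each and 0 to 2 in each ES library. At these 3 bins the iPS level was above that of MEFs at full depth. In the same order, full-depth ES levels were 0.905, 1.61 and 1.81 RPM per kb in replicate 1. They were 2.34, 2.98 and 2.77 in replicate 2 and 0.161, 0.161 and 0 in replicate 3. Replicates 1 and 2 thus lay above the 0.872 RPM of 2 reads, and the bins counted as low there through the thinned draw.

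The other 5 lay away from H3K4me3 and had more reads in MEFs than in iPS cells. Domain chr2:32455001-32457000 had 51 thinned MEF reads, 15 iPS reads and 2, 3 and 2 ES reads, or 11.9, 3.27 and 0.986 ± 0.277 RPM per kb (SD, n = 3). Domain chr6:114826001-114829000 had 92 thinned MEF reads, 13 iPS reads and 1, 2 and 6 ES reads, or 13.6, 1.89 and 0.745 ± 0.130 RPM per kb. Liver held 3.96 and 2.41 RPM per kb there. The iPS level was above each ES library and below MEFs in both domains. The other 3, chr12:99659001-99667000, chr17:45253001-45263000 and chr11:18848001-18851000, were named only through a bin between that was not fibroblast-only. In their fibroblast-only bins no bin held more than 3, 4 and 4 iPS reads. On chromosome 12 these bins held 8 iPS reads in all and 9, 9 and 5 ES reads, so iPS cells lay within the range of the ES libraries there. On chromosome 17 they held 9 iPS reads and 4, 7 and 3 ES reads. On chromosome 11 they held 6 iPS reads and 1, 2 and 4 ES reads, so iPS cells lay above each ES library in both. All 8 domains were picked for their iPS reads, so these values carry no test.

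The reverse set, bins marked in ES cells and low in MEFs, was high in iPS cells. Over 16063, 14097 and 13059 such bins, chosen with ES replicate 1, 2 or 3 left out, iPS cells had 5.00, 4.96 and 5.03 RPM per kb and the left-out ES library 3.83, 4.26 and 4.59. The iPS level was 1.19 ± 0.107 times that of the ES library and above it in 3 of 3 cases, and with scaling to unmarked bins 1.61 times. iPS cells reached 8 reads in 75.8, 74.6 and 75.6% of the bins and the left-out ES library in 58.2, 66.3 and 71.5%. At most 2 reads were found in 1.43, 1.87 and 1.59% in iPS cells and in 3.56, 2.48 and 2.17% in ES cells. The iPS mean was thus not below that of ES cells in any of the 3 choices. The shares of reads in marked bins given above differ between the same libraries, and their part in this ratio was not tested.

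With all 3 ES libraries marked, 9340 bins were pluripotent-only and 70 of them (0.749%, 0.585 to 0.946) held at most 2 iPS reads. By domain 46 of 6844 stayed low. The one with the most ES reads was chr2:162754001-162756000, a domain with H3K4me3, with 3 reads in iPS cells, 27, 34 and 26 in the thinned ES libraries and 0 in MEFs at full depth. Its level was 0.654 RPM per kb in iPS cells and 6.17 ± 1.03 in ES cells (SD, n = 3), and ES H3K27ac was 15.0 and 14.3. The other 4 were single bins with 2 iPS reads and 8 to 17 reads in each thinned ES library.

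Marks found in iPS cells alone were rare. Of the iPS-marked bins 290 (0.379%) had at most 2 reads in MEFs and in each ES library. Domain chr7:11956001-11959000 had 26 iPS reads, 0 thinned MEF reads and 16, 15 and 6 ES reads over 3 bins, of which only 2 were iPS-only. In those 2 bins iPS cells had 17 reads and each ES library 4. Bin chr11:113942001-113943000 had 18 iPS reads, 0 thinned MEF reads and 0, 1 and 2 ES reads, or 7.85 RPM per kb in iPS cells and 1.71 ± 0.664 in ES cells (SD, n = 3). Its full-depth ES levels were 1.11, 1.60 and 2.42 RPM per kb in replicates 1, 2 and 3. All lay above the 0.872 RPM of 2 reads, so the bin counted as low in ES cells through the thinned draw.

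The 5 leading shared domains, ranked by level per kb, which favours narrow ones, were single bins, and 4 of them held H3K4me3. Bin chr8:87554001-87555000 had 40.1 RPM per kb in iPS cells and 16.5 in MEFs, with 104, 198 and 1 reads in ES replicates 1, 2 and 3 at full depth. Bin chr13:94404001-94405000 had 21.4 in iPS cells and 22.3 in MEFs, with 64, 124 and 0 ES reads. At both, the inbred C57/B6 library was at or near 0 where both V6.5 libraries were high. Bin chr17:6379001-6380000, without H3K4me3, was high in all, and its H3 was high too, at 3.62 RPM per kb in ES cells and 3.60 in MEFs.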

How the data were processed

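Each deposited file lists aligned reads of 1 library as signed positions under chromosome names, per the file headers; the authors deposited positions, neither counts nor another normalised unit. Which aligner and which build were used is not given in the sources used here. Per the labels' protocols, chromatin was sheared to about 500 bp, amplified with 18 PCR cycles and cut from a gel at 200 to 350 bp. Positions were read on the 19 autosomes, counted once per position and strand, moved 100 bp toward the fragment centre and binned at 1000 bp. H3K4me1 reads of MEFs, ES cells and liver, and H3K4me3 reads of ES cells and liver, were thinned to the 2294246 distinct iPS reads with a fixed seed; H3K4me3 bins follow the rule for marked bins, so promoters active only in MEFs or iPS cells count as without it. Background was H3 of MEFs, ES cells (also for iPS cells) or liver, as the larger of its 5 kb mean and the genome mean. An unmarked bin had at least 3 H3 reads in ES cells and MEFs together. limma 3.58.1 (trend, prior count of 2, own code for trimmed mean scaling) ran in R 4.3.3, the rest in Python 3.11.15 with scipy 1.17.1. The calling rule and limma were run on simulated data, and the outcome is not given here. For the calling rule the simulated levels lay far from the minimum of 8 reads, so that run cannot speak for bins near it. Named domains follow a rule: the 8 lost and 8 gained of at least 2 bins with the largest ratio, the 5 shared with the highest lower level, the 8 fibroblast-only and 5 iPS-only with the most iPS reads, and the 5 with the most ES reads that stayed low. The members, rules and lists were chosen with earlier results of these data known. No sequence was printed, because no genome of the files' build was used here.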

Additional observations from a re-analysis of the deposited data

How the results depend on the processing

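No paired analysis was possible because the iPS and MEF groups hold 1 library each and share no pairing in the labels. Of the alternatives to the calling of bins that changed a count at all, 11 of 12 kept the lost, 10 of 12 the gained and 8 of 10 the shared count within 1.5 times; background scaling changed none, and folds of 2 and 5 cannot touch the shared count. A read minimum of 12 gave 23986 lost, 16753 gained and 5298 shared bins, and bins of 500 bp gave 22977 gained and 5783 shared. The gained share of all changed bins was 49.8%, and 37.7% with bins of 500 bp, 41.1% with the minimum of 12 reads, 55.5% with bins of 2000 bp and 57.02% with trimmed mean scaling. Scaling on bins unmarked in all libraries multiplied MEF reads by 0.999 and trimmed mean scaling by 0.843 (-0.25 on the log2 scale). Those unmarked bins were chosen for few reads in iPS cells and MEFs alike, which limits how far the first factor can move. The iPS level at fibroblast-only bins relative to the left-out ES library was 0.865 to 0.922 over the 3 libraries left out, 1.20 with background scaling, 0.817 with an ES ceiling of 1 read and 0.837 without bins within 5000 bp of H3K4me3. At pluripotent-only bins it was 1.09 to 1.31 over the libraries left out and 1.61 with background scaling. The limma counts of bins higher and lower in iPS cells each moved by over 1.5 times in 5 of 6 alternatives, and the cause was not tested. They were 3794 and 8181 without trimmed mean scaling, 56164 and 57197 at full depth, 31832 and 25297 with limma-voom and 1909 and 6214 with liver in the fit. A minimum of 4 reads gave 3298 and 14990. A prior count of 0.5 gave 9713 and 5085, which turned the balance of the main 7651 and 14608, as did limma-voom. Leaving out 1 ES library gave 198 to 305 higher and 7691 to 8285 lower. The depth of the iPS library limits all calls: a bin with 2 reads or fewer is low, not empty.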
